A study of Mus musculus with 2 samples.

Results

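The 43 genes described here encode the proteins of NF-κB, cytokine and JAK-STAT signalling, from secreted ligands to nuclear factors. They were listed by name for their roles, with earlier results of these data known, and each of the 43 matched 1 gene among 21866 protein-coding genes of the GENCODE M21 annotation of mm10. The data are a list of chromatin immunoprecipitation peaks of CHOP, the stress-induced C/EBP-family protein encoded by Ddit3. Liver came from wild-type mice given tunicamycin, which blocks N-linked glycosylation, injected intraperitoneally at 1 mg/kg and left to act for 8 h. The precipitate was a single library made from 3 animals together, and the input library carries the same tissue, genotype and treatment labels. Age, sex and strain of the mice are not given in the sources used here. No vehicle-treated or CHOP-deficient group was analysed here, so binding without stress, binding without CHOP and variation between mice were not measured. The peak list holds no expression values, so the tissue label could not be checked against marker levels, and nothing below says whether a gene was induced or repressed.

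NF-κB is a family of dimeric transcription factors that inhibitor proteins hold in the cytoplasm until a ligand such as TNF or IL-1, or a microbial product, activates the IKK kinases. Cytokines of the IL-6 type act instead through receptor-bound JAK kinases, which phosphorylate STAT proteins, and both routes induce their own inhibitors. In the liver these pathways drive the acute-phase response, and hepatocytes carry the receptors while resident macrophages make many of the ligands.

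A peak counted as a promoter peak of a gene if its summit was within 1 kb of a start site of that gene. It counted as distal if the summit was further away but within 50 kb and that gene had the nearest start site. Positions below are from the nearest annotated start site of the gene, negative upstream. Fold is the authors' enrichment at the summit, the reads there over the local background with 1 added to each, and the interval after it is an exact 95% Poisson interval on those reads, which covers counting error only. The 14157 peaks of the list had a median of 11 reads at the summit (4 to 329) and a median fold of 6.75. The labels and the peak list do not give the total depth of either library.

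CHOP peaks lay at the promoters of 24 of the 43 genes (55.8%), against 27.9% of all protein-coding genes. Distal peaks were assigned to 14 genes (32.6%, against 18.02% of all genes), and 27 genes had a peak of either kind (62.8%, against 38.2%). Both kinds were found at 11 genes (25.6%, against 7.71% of all genes) and a promoter peak alone at 13. A distal peak alone was found at 3, Il1b, Cxcl1 and Socs1 (6.98%, against 10.3%). The remaining 16 genes had neither (37.2%, against 61.8%). No test was made on these counts, since the genes form a hand-chosen list.

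The count differed between the steps of the pathway. All 5 NF-κB subunits, 5 of 6 adaptors and kinases, and 6 of 7 JAK-STAT genes had a promoter peak, against 27.9% of all genes. Receptors stood at 4 of 8 and the inhibitors and brakes of NF-κB at 3 of 6. None of the 7 ligands (Tnf, Il1b, Il6, Cxcl1, Cxcl2, Cxcl10 and Ccl2) had one. Among the other induced genes, Irf1 had a promoter peak, and Icam1, Birc3 and Ier3 had no peak. Because groups hold 4 to 8 genes, 1 gene moves a share by a large step.

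**Figure D1:**
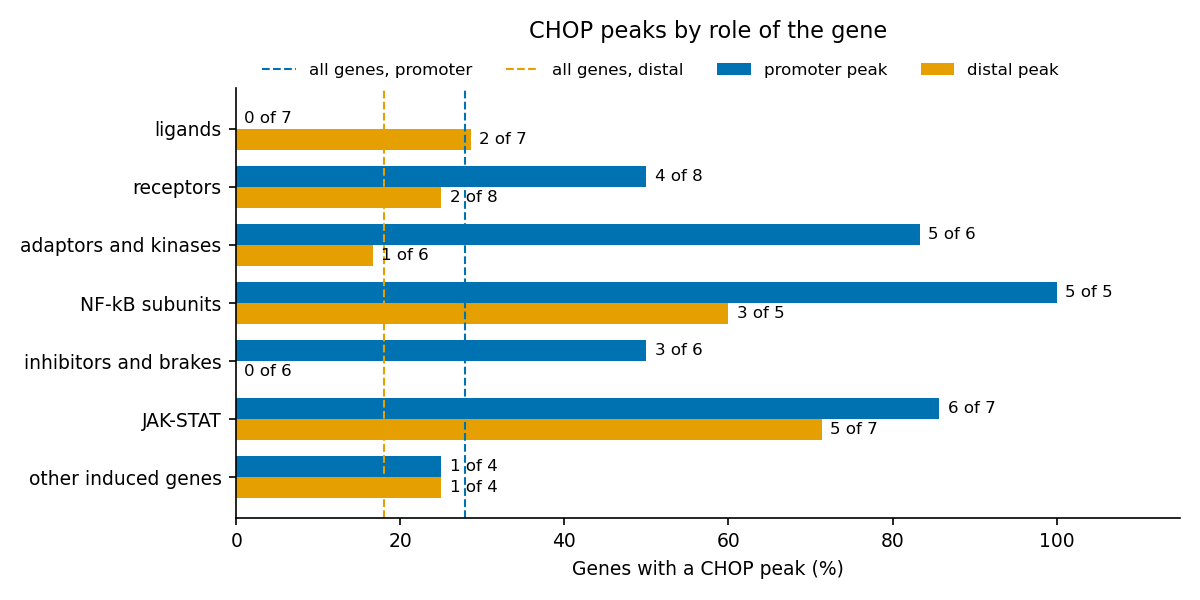
Share of genes (%) with a promoter peak (blue) or a distal peak (orange), by role, with the number of genes beside each bar and dashed lines at the shares of all 21866 genes (27.9% and 18.02%). Bars for subunits, adaptors and kinases, and JAK-STAT genes reach past 80% for promoter peaks, and the ligand bar is at 0.

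Promoter base composition differed between roles as well, though not always with the count of peaks. The CpG ratio (observed over expected CpG within 500 bp of the outermost start site) was at least 0.6 in all 7 JAK-STAT genes, all 6 adaptors and kinases and 4 of 5 subunits, and in none of the 7 ligands. It was at least 0.6 in 4 of 6 inhibitors and brakes and in 3 of 8 receptors, groups with the same share of promoter peaks, and in 2 of 4 other induced genes. Across the genome, 51.0% of genes with a ratio of at least 0.6 had a promoter peak, against 7.68% of genes below it. Of the signalling genes, 21 of 26 above that ratio (80.8%) and 3 of 17 below it (17.6%) had one. The median ratio was 0.80 for the 24 genes with a promoter peak and 0.40 for the 19 without, and over all genes it was 0.81 and 0.38. The 3 genes with a peak at a CpG-poor promoter were Nfkb2 (ratio 0.56), Tnfrsf1a (0.46) and Il1r1 (0.32). CpG-rich promoters without a peak were those of Traf6 (0.78), Nfkbie (0.69), Il1rap (0.68), Ier3 (0.68) and Socs1 (0.66). The part of base composition in the counts by role was not tested.

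**Figure D2:**
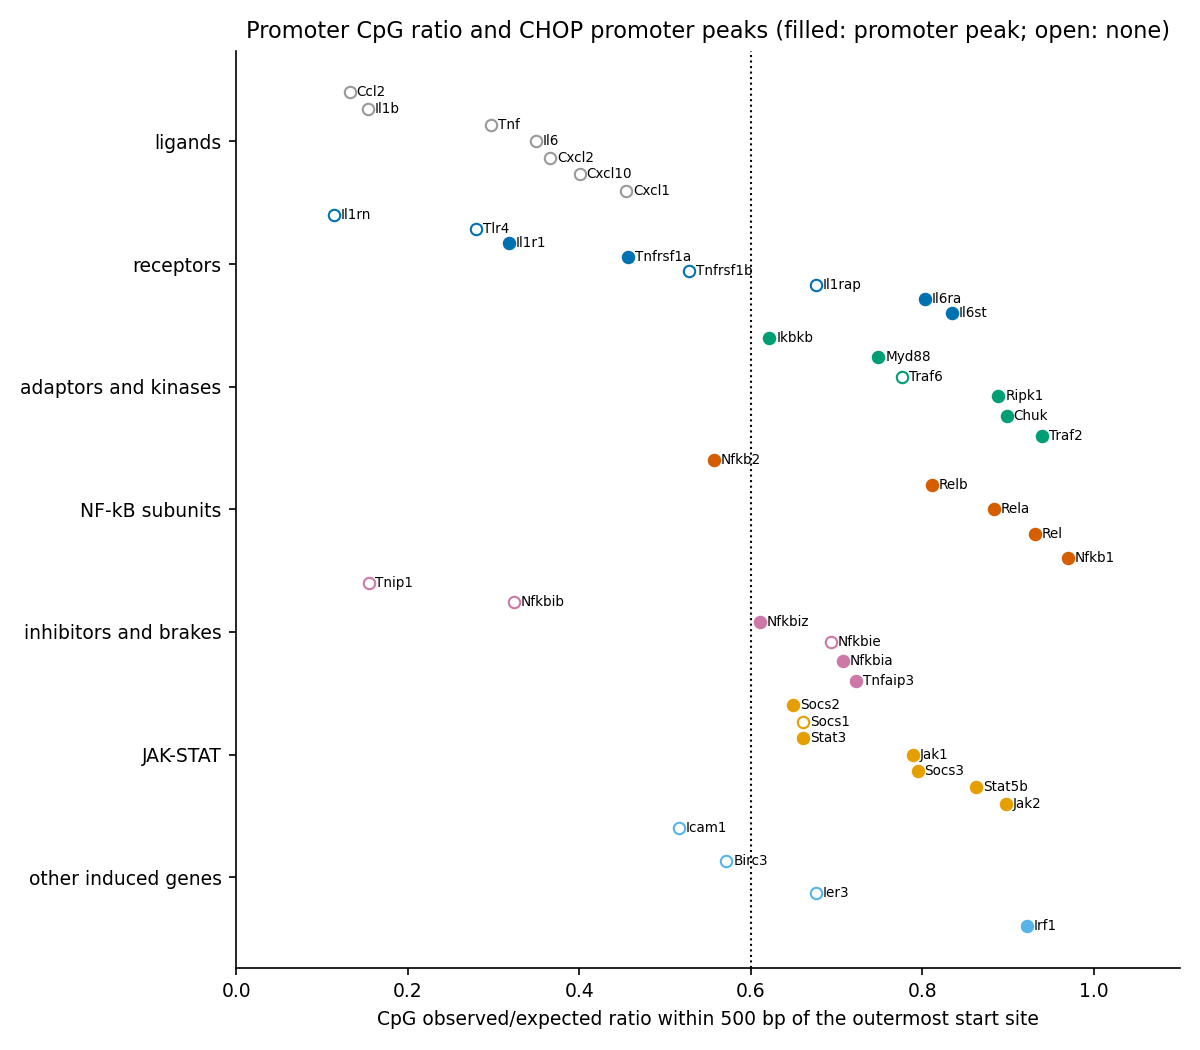
CpG observed/expected ratio of each of the 43 promoters (x axis, no unit) by role, filled where the gene had a CHOP promoter peak and open where it had none, with a dotted line at 0.6. All 7 ligands are open and left of the line, and all 7 JAK-STAT genes lie right of it, with Socs1 the only open one among them.

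The sequences under the strongest promoter summits are printed because they show what lay at the points of highest enrichment. Each is the mm10 sequence on the strand of the gene, 5′ to 3′, and capitals mark matches to a searched motif. Nfkbiz is chr16:55822318-55822418, Rel chr11:23771012-23771112 and Nfkbia chr12:55491964-55492064, each within 50 bp of the summit. Only the 30 bases at the summit are given for Il6ra (chr3:89913212-89913241), Tnfaip3 (chr10:19015432-19015461) and Rela (chr19:5637811-5637840), whose windows overlap an annotated UTR.
Nfkbiz: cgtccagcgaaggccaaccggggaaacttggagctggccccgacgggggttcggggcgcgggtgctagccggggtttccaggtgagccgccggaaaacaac
Rel: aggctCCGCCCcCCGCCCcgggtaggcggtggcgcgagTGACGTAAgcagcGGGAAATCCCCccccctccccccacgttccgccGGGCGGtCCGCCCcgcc
Nfkbia: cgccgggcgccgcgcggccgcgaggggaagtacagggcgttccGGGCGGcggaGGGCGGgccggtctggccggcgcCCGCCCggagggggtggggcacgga
Il6ra: ggacggccggctgctgtgtgtCACGTGcat
Tnfaip3: gcggcgcgccacgcgggtCACGTGactgga
Rela: ggccCCGCCCccgggaccctgaccatggac

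In the Rel window the capitals are GC boxes, a κB match and TGACGTAA, a variant of the cyclic AMP response element that was added to the search after this sequence was seen. The Il6ra and Tnfaip3 windows share the palindromic E-box CACGTG, and Rela and Nfkbia show GC boxes. No searched motif was found in the Nfkbiz window.

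Among the NF-κB subunits, Rel, the c-Rel subunit best known from lymphocytes, had by far the highest enrichment. Its peak (chromosome 11, 23770422 to 23771509) rested on 75 reads at a summit 92 bp upstream of the start site, with a fold of 27.3 (21.6 to 34.1) and −log10 q of 88.2, above 97.8% of all promoter peaks. Rela, which encodes the main activating subunit p65, had 28 reads and a fold of 11.2 (7.59 to 16.0, −log10 q 21.9) at -133 bp from its nearest start site on chromosome 19 (5637345 to 5638068), in sequence annotated as 5′ UTR of Rela. The intervals of Rel and Rela do not overlap. Relb, the partner of p52 in the non-canonical pathway, stood at 8.48 (5.14 to 13.3, 17 reads, −log10 q 11.8) with its summit 5 bp upstream of the start site on chromosome 7 (19629231 to 19629574). Its summit base was repeat-masked, and 22.8% of the 101 bp around it was.

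Nfkb1, the gene of p105 and its product p50, had a 7.12-fold peak (4.25 to 11.3, 16 reads, −log10 q 9.26) in an intron 518 bp downstream of a start site (chromosome 3, 135690766 to 135691709). Nfkb2, the gene of p100 and p52, had the fewest reads of the 5, with 7 at -122 bp on chromosome 19 (46304544 to 46304738, 5′ UTR) and a fold of 5.59 (2.66 to 10.8, −log10 q 4.58). Rela, Relb, Nfkb1 and Nfkb2 have overlapping intervals, so their order is not resolved at this depth.

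The inhibitors and brakes of NF-κB divided into 3 genes with promoter peaks and 3 with no peak at all. Nfkbiz encodes the nuclear inhibitor-like protein IκBζ that helps NF-κB activate a subset of its targets. It had the highest promoter fold of all 43 genes at 29.1 (23.0 to 36.3, 76 reads, −log10 q 92.3; chromosome 16, 55821886 to 55822741). Its summit lay 230 bp upstream of an inner start site and inside an intron of Nfkbiz, and the gene counted as distal when only the outermost start site was used. Nfkbiz and Rel differ by less than their intervals.

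Nfkbia, which encodes IκBα, the inhibitor that retains p65 in the cytoplasm and is itself an NF-κB target, had a pair of promoter peaks on chromosome 12. The stronger one (55491735 to 55492285) had 27 reads and a fold of 11.7 (7.88 to 16.9, −log10 q 22.2) in an intron at 633 bp. The weaker one (55492492 to 55492709) covered the start site and had 9 reads and a fold of 5.20 (2.66 to 9.40, −log10 q 4.18) at 51 bp. Tnfaip3, the ubiquitin-editing enzyme A20 that shuts off TNF signalling, had a fold of 11.4 (7.48 to 16.8, 24 reads, −log10 q 19.95) in an intron at -37 bp (chromosome 10, 19015100 to 19015727). The genes of IκBβ (Nfkbib), IκBε (Nfkbie) and the A20-binding protein ABIN1 (Tnip1) had neither a promoter nor a distal peak.

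The 5 adaptors and kinases with a promoter peak had lower folds than Rel and Nfkbiz. Traf2, a ubiquitin ligase adaptor of TNF receptors, led at 10.2 (6.43 to 15.5, 20 reads, −log10 q 15.9), in the 5′ UTR at 28 bp on chromosome 2 (25546592 to 25547013). Chuk and Ikbkb encode IKKα and IKKβ, the kinases that mark inhibitor proteins for destruction. Chuk had a fold of 7.92 (4.99 to 12.0, 20 reads, −log10 q 12.2) in a coding exon at 103 bp on chromosome 19 (44106970 to 44107532). Ikbkb had a fold of 6.29 (3.63 to 10.3, 14 reads, −log10 q 7.22) in an intron at 136 bp on chromosome 8 (22706368 to 22706570).

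The peaks of Ripk1 and Myd88 lay close to a start site of another gene on the opposite strand. Ripk1, the kinase that decides between survival and death downstream of TNF, had a 4.76-fold peak (2.58 to 8.21, 11 reads, −log10 q 4.06; chromosome 13, 34002462 to 34002758) in its 5′ UTR, 186 bp from its start site and 191 bp from that of Serpinb6a. Myd88, the adaptor of Toll-like and IL-1 receptors, had 7 reads and a fold of 4.24 (2.02 to 8.18, −log10 q 2.52; chromosome 9, 119340871 to 119341365) at 107 bp, and this summit was nearer, at 10 bp, to Acaa1a, a peroxisomal thiolase. Position alone cannot assign either peak. Traf6, the ubiquitin ligase that links MyD88 to IKK, had no peak, and the nearest summit was 205366 bp away.

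Of the receptors, Il6ra, the ligand-binding chain for IL-6, had the highest promoter fold. Its promoter peak on chromosome 3 (89912449 to 89913816) was 1368 bp wide, wider than 99.0% of promoter peaks, with 38 reads and a fold of 19.0 (13.6 to 25.9, −log10 q 41.5) at -31 bp in intergenic sequence. Its partner Il6st, the signal-transducing chain gp130, had the lowest promoter fold of all 24 genes, 3.95 (2.08 to 6.97, 10 reads, −log10 q 2.67; chromosome 13, 112463968 to 112464383), although its summit was 2 bp from a start site. The intervals of Il6ra and Il6st do not overlap, whereas those of Il6ra and Il1r1 do.

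Il1r1, the signalling receptor for IL-1, had a 9.0-fold peak (4.87 to 15.5, 11 reads, −log10 q 11.0) at 174 bp in its 5′ UTR on chromosome 1 (40225108 to 40225414). Tnfrsf1a, the TNF receptor found on most cells, had a 6.75-fold peak at the minimum width in the list, 172 bp, resting on 8 reads at -528 bp in intergenic sequence (3.34 to 12.6, −log10 q 6.68; chromosome 6, 125348761 to 125348932). The summit of Tnfrsf1a was repeat-masked, with 80.2% of its window. Il1rap and Il1rn, the IL-1 receptor accessory chain and the receptor antagonist, Tnfrsf1b, the second TNF receptor, and Tlr4, the receptor for lipopolysaccharide, had no peak by the rule.

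The JAK-STAT genes nearly all had promoter peaks of moderate fold, 4.57 to 8.63. Jak1, the kinase shared by gp130 and interferon receptors, had 23 reads and a fold of 8.63 (5.60 to 12.8, −log10 q 14.8) at 316 bp in an intron (chromosome 4, 101264458 to 101265288). Jak2, the kinase of the growth hormone receptor, had a fold of 7.07 (4.08 to 11.5, 14 reads, −log10 q 8.41) at -275 bp in intergenic sequence (chromosome 19, 29251263 to 29252087). Stat5b, the growth hormone effector in liver, had a fold of 5.89 (3.46 to 9.48, 15 reads, −log10 q 6.95) at 183 bp in its 5′ UTR (chromosome 11, 100850213 to 100850917). Stat3, the effector of IL-6 in the acute-phase response, had a fold of 4.68 (2.31 to 8.71, 8 reads, −log10 q 3.25) at 120 bp in its 5′ UTR (chromosome 11, 100939245 to 100939498).

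The SOCS genes encode feedback inhibitors of these kinases. Socs2, which restrains growth hormone signalling, had a fold of 8.19 (5.03 to 12.7, 18 reads, −log10 q 11.8) in an intron at -87 bp on chromosome 10 (95416458 to 95417035). Socs3, the main inhibitor of gp130 signalling, had 2 promoter peaks on chromosome 11. One was in its coding exon at 965 bp (117968018 to 117968356; 5.65-fold, 3.06 to 9.75, 11 reads, −log10 q 5.35). The other was at -226 bp (117969198 to 117969518; 4.57-fold, 2.34 to 8.26, 9 reads, −log10 q 3.30). It lay inside the annotated gene bounds but upstream of the only protein-coding start site. Socs1 had no promoter peak. All intervals of the JAK-STAT promoter peaks overlap, so no order among them is resolved. Irf1, an interferon-regulatory factor, had a fold of 5.74 (3.52 to 8.89, 18 reads, −log10 q 7.77) in an intron at -47 bp on chromosome 11 (53770322 to 53770697).

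**Figure D3:**
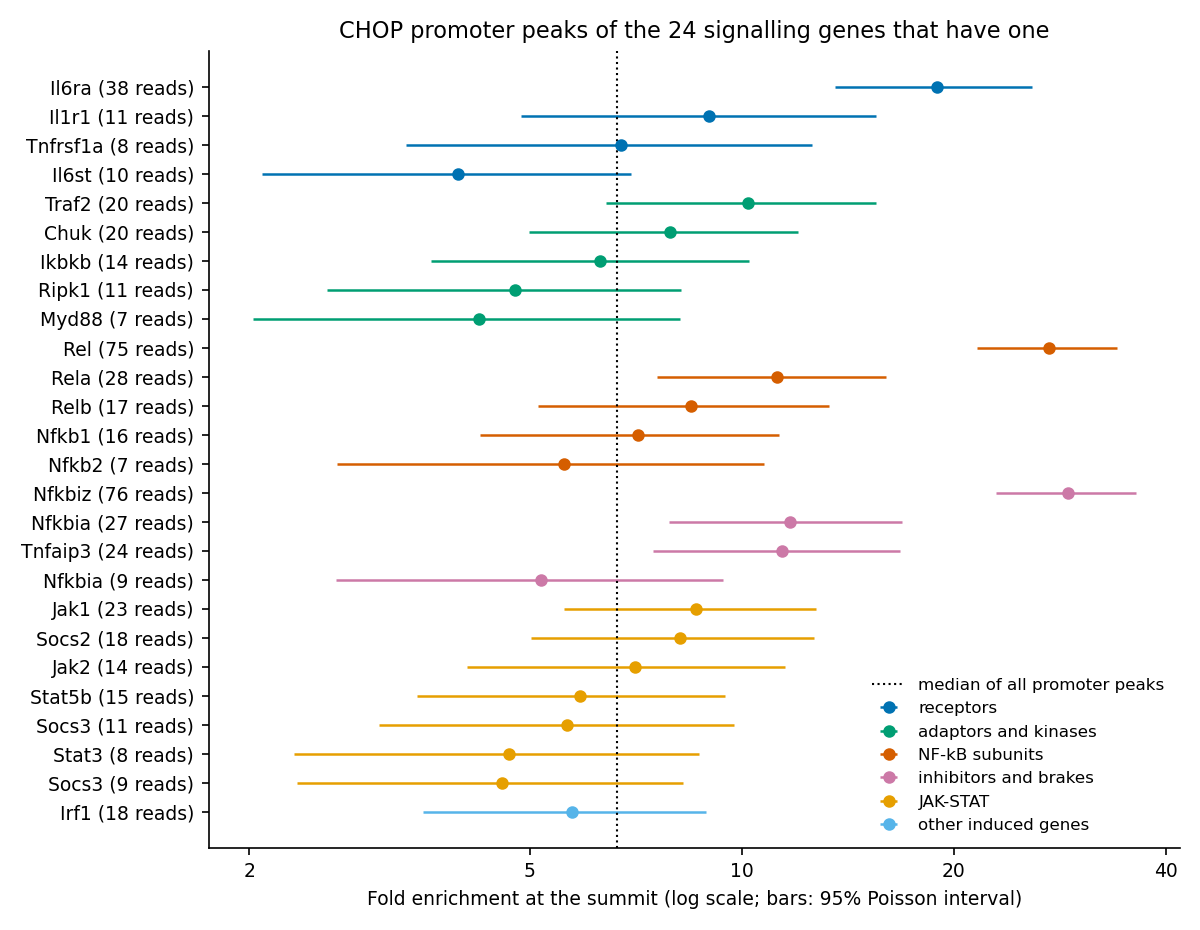
Fold enrichment of the 26 promoter peaks of 24 genes (x axis, log scale), coloured by role, with exact 95% Poisson intervals and reads at the summit in the labels, and a dotted line at the median of all promoter peaks (6.65). Nfkbiz, Rel and Il6ra lie to the right of all others, and 7 peaks rest on 10 or fewer reads.

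Set against the whole list, these promoter peaks were ordinary in strength. Their median fold was 7.10 (n = 26, 3.95 to 29.1) against 6.65 for all 6306 promoter peaks, and their median reads were 15.5 against 13. Peaks of 10 or fewer reads made up 26.9% of them and 30.4% of all promoter peaks. Median width was 458.5 bp against 351 bp. The summit lay within 100 bp of the start site in 9 of 26 (34.6%), against 48.0% of all promoter peaks, and the peak interval covered a start site in 17. By annotation, 10 summits lay in a 5′ UTR, 5 in intergenic sequence and 2 in a coding exon. The other 9 lay inside a gene but outside the UTRs and coding exons of protein-coding transcripts, and were counted as intronic. They include the Socs3 summit at -226 bp, which lay upstream of its protein-coding start site. Just inside the 1 kb limit was the Socs3 summit at 965 bp (5.65-fold), and the nearest summit outside it was that of Nfkb2 at 3460 bp (7.28-fold).

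Sequence motifs within 50 bp of the summits set the promoter peaks of these genes beside other promoter peaks. The κB consensus, the 10-base site bound by NF-κB dimers, was present at 5 of 26 (Nfkb1, Rel, Relb, Tnfaip3 and Jak1), while 3.68% of all promoter peaks and 3.11% of 101 bp windows at all gene starts held it. Within 25 bp of the summit it was present at 4 of 26 against 1.79%, and within 100 bp at 10 of 26 against 7.57%. NF-κB genes and their inhibitors are well known to carry κB sites in their own promoters, and the genes were listed for that pathway. The match centres lay 14 bp downstream of the Nfkb1 summit, 6 and 7 bp downstream for the overlapping pair at Rel, 14 bp upstream at Relb, and 30 and 20 bp downstream at Tnfaip3 and Jak1. The windows around the match are chr3:135691002-135691027 for Nfkb1, chr7:19629445-19629470 for Relb, chr10:19015405-19015430 for Tnfaip3 and chr4:101264925-101264950 for Jak1, with the κB match in capitals.
Nfkb1: ggactaggGGAGAGCCCCaagcagga
Relb: gcggcgccGGGGAATTCCgccgcccc
Tnfaip3: tttccatcGGAAATCCCCctgttggc
Jak1: gccggggcGGGGATTTCCaggcggcg

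STAT sites (TTCNNNGAA) were found at 2 of 26 promoter peaks against 0.936% of all promoter peaks and 2.38% of start-site windows. The genes were Socs2 and Nfkb2, and the match of Nfkb2 was centred 29 bp upstream of its summit. At distal summits, 1 of 22 held a match, in a coding exon of Stat3, against 2.13% of all distal peaks. The window of Nfkb2 is chr19:46304580-46304605 and that of Stat3 is chr11:100908668-100908693, with the match in capitals.
Nfkb2: gggcgagccTTCCCCGAAaggggcgc
Stat3 distal: gcacaaccTTCGAAGAAtcaagcagt

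C/EBP and ATF proteins are the usual partners of CHOP. None of the 26 promoter windows held the C/EBP-ATF composite TGATGNAAT, the C/EBP site TTGCNNAA or the core TGCAAT, and 5.66% of all promoter peaks held at least 1 of them, a share that amounts to 1 or 2 peaks among 26. The CRE palindrome TGACGTCA (0.857% of all promoter peaks), the AP-1 site TGANTCA (1.09%) and the ETS site CCGGAAG (4.12%) were not found either. The CRE variant TGACGTAA was at 1 of 26 peaks, that of Rel, and in 0.270% of all promoter peaks. GC boxes (GGGCGG) were at 15 of 26 peaks, against 45.4%, and the E-box CACGTG at 3 (Il6ra, Tnfaip3 and Socs2), against 5.41%. Matches can overlap: the core TGCAAT is contained in the composite when its free base is C, and the κB pair at Rel shares bases. A match is a description of letters, not a measured site.

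**Figure D4:**
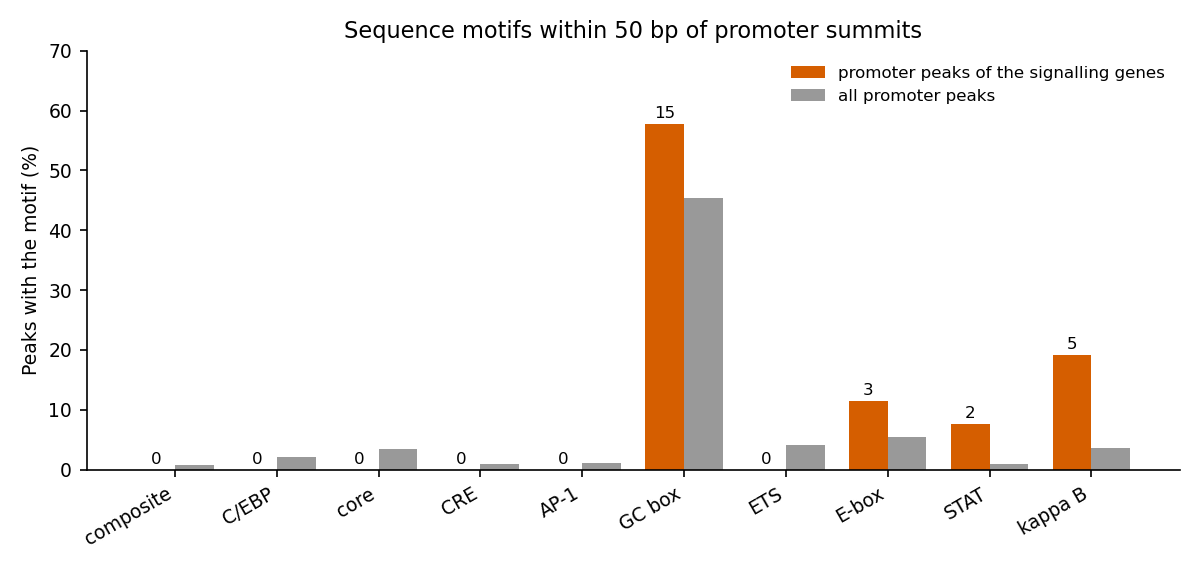
Share of promoter peaks (%) with each motif within 50 bp of the summit, for the 26 peaks of the signalling genes (orange, number above each bar) and for all promoter peaks (grey). The κB bar stands at 5 of 26 peaks against 3.68%, and the bars of the composite, C/EBP and core motifs are at 0.

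Away from promoters, 14 genes had 22 distal peaks, with a median fold of 6.96 (3.52 to 37.5) against 6.75 for all 5297 distal peaks within 50 kb. Of the 22, 14 rested on 10 or fewer reads (63.6%, against 56.7% of all distal peaks), and 11 (50%, against 45.2%) had the genome-wide background of 0.333 reads. Summits were intergenic in 11, intronic in 7, in a coding exon in 3 and in a 3′ UTR in 1.

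The highest distal folds were compact peaks on repeats. Il1r1 had a 37.5-fold peak (27.9 to 49.3, 49 reads, −log10 q 83.7) 312 bp wide in an intron at 9087 bp (chromosome 1, 40234011 to 40234322). Stat5b had an 18.7-fold peak (12.3 to 27.5, 24 reads, −log10 q 33.1) 310 bp wide in an intron at 15962 bp (chromosome 11, 100806409 to 100806718). Traf2 had a 12.99-fold peak (8.51 to 19.1, 24 reads, −log10 q 22.5) 302 bp wide at -5165 bp in intergenic sequence (chromosome 2, 25551950 to 25552251). All 3 had a repeat-masked summit, with 52.5%, 46.5% and 73.3% of the window masked. A masked summit of any width was found at 6 of the 22 distal peaks (27.3%), against 39.2% of all distal peaks. Peaks 290 to 340 bp wide with a masked summit were 3 of the 22 (13.6%), against 14.4% of all distal peaks. They made up 43.4% of the 978 distal peaks in the list with a fold of at least 12. The part of repeats in these folds was not tested, and Traf2 had no distal peak other than its masked one.

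Distal peaks on unmasked sequence were led by Cxcl1, the neutrophil chemokine gene. It had 2 intergenic peaks upstream, one 12.7-fold (7.61 to 20.2, 16 reads, −log10 q 19.0) at -18688 bp (chromosome 5, 90872304 to 90872692) and one 7.17-fold (3.67 to 12.97, 9 reads) at -6191 bp. Il1r1 followed with a second intronic peak at 17846 bp, 10.5-fold (5.94 to 17.4, 13 reads, −log10 q 14.1; chromosome 1, 40242816 to 40243076). Il6ra had a peak at -4397 bp in intergenic sequence, 9.49-fold (5.26 to 16.0, 12 reads, −log10 q 12.0; chromosome 3, 89917448 to 89917711). Nfkb1 had a pair of 8.25-fold peaks (4.35 to 14.5, 10 reads, −log10 q 9.51 each), one in an intron at 21667 bp and the other in its 3′ UTR at 22966 bp, both measured from the nearest annotated start site (chromosome 3, 135608270). The windows at these summits are chr5:90872503-90872603 for Cxcl1, chr1:40242876-40242976 for Il1r1, chr3:89917543-89917643 for Il6ra and, for the peak of Nfkb1 in the UTR, only chr3:135585289-135585318, with capitals for the C/EBP core at Il1r1 and Nfkb1 and for the AP-1 site at Il6ra.
Cxcl1: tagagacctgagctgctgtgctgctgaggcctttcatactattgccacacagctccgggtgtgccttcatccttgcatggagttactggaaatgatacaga
Il1r1: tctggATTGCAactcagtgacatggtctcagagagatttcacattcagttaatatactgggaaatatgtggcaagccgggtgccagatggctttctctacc
Il6ra: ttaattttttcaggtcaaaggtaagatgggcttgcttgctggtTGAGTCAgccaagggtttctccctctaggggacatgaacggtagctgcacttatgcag
Nfkb1: ccctgacagtccATTGCAtcgtcccaaagg

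These 2 core matches were the only C/EBP-type motifs within 50 bp of the 22 distal summits, a share of 9.09% against 20.5% of all distal peaks. Within 100 bp the core was at 3 of 22 (against 20.2%) and the C/EBP site at 1 (against 11.3%). The composite was at 1 (against 5.91%), the Cxcl1 peak at -6191 bp. No motif of the set was found in the printed window of the other Cxcl1 peak.

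Jak1 had the most distal peaks, 4, at 30236 bp in an intron and at -10614, -26948 and -27817 bp in intergenic sequence, with folds from 4.67 to 8.15 on 6 to 12 reads. The summits at 30236 and -10614 bp were repeat-masked, with 48.5% and 47.5% of the window masked. The highest of the 4, at -27817 bp, had an interval of 4.52 to 13.8 (12 reads, −log10 q 9.51; chromosome 4, 101292981 to 101293270). Nfkb2 had a 7.28-fold peak (4.12 to 12.1, 13 reads, −log10 q 8.39) in a coding exon at 3460 bp (chromosome 19, 46308991 to 46309256). Irf1 had a 6.75-fold peak (3.34 to 12.6, 8 reads, −log10 q 6.68) at -6964 bp in intergenic sequence (chromosome 11, 53762880 to 53763172). Il1b, the gene of the inflammasome product IL-1β, had 2 intergenic peaks on 8 and 6 reads, the higher downstream of the gene, 29352 bp from its start site (chromosome 2, 129341767 to 129341938; 6.44-fold, 3.19 to 12.0, −log10 q 6.08, repeat-masked) and the lower at -7108 bp (5.25-fold).

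The distal peaks of the other 4 genes rested on 6 or 7 reads. Socs1 had a 6.0-fold peak (2.86 to 11.6, 7 reads, −log10 q 5.35) at 44436 bp inside an intron of Clec16a (chromosome 16, 10741002 to 10741173). Socs3 had a 5.99-fold peak (2.85 to 11.5, 7 reads, −log10 q 5.35) at 33281 bp in intergenic sequence (chromosome 11, 117935837 to 117936072). Stat3 had a 5.25-fold peak (2.40 to 10.5, 6 reads, −log10 q 4.09) at 30720 bp in a coding exon (chromosome 11, 100908506 to 100908744). Relb had the lowest of the 22, a 3.52-fold peak (1.61 to 7.06, 6 reads, −log10 q 1.46) at 8797 bp in a coding exon (chromosome 7, 19619566 to 19619787), above only 0.245% of all distal peaks. The second distal peak of Stat5b, at -7253 bp, was 4.50-fold on 5 reads and also lay in an intron of the gene. Both distal peaks of Stat5b were measured from an inner start site (chromosome 11, 100822528). Just inside the 50 kb limit were Socs1 and Socs3, and the first summits outside it were those of Nfkb1 at 53976 bp (9.53-fold, 23 reads) and Jak1 at 76399 bp (5.22-fold, 6 reads).

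**Figure D5:**
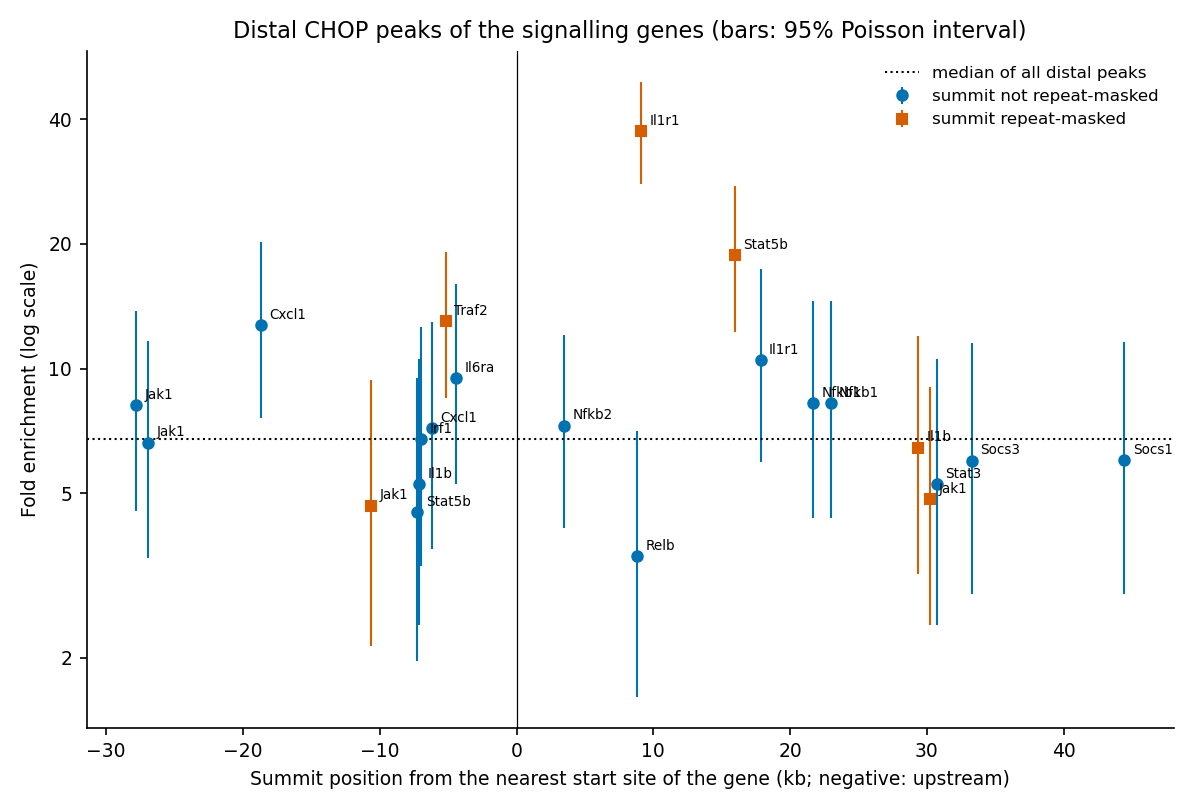
Fold enrichment (y axis, log scale) of the 22 distal peaks against the position of the summit from the nearest start site of the gene (kb), with exact 95% Poisson intervals, squares for repeat-masked summits and a dotted line at the median of all distal peaks (6.75). The 3 highest points, of Il1r1, Stat5b and Traf2, are squares, and most other intervals cross the dotted line.

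The 16 genes without a peak by the rule included several with a summit nearby that belonged to a neighbour. In the 3′ UTR of Nfkbie, 6903 bp from its nearest start site, lay a 14.2-fold peak (18 reads) whose nearest start was that of Slc35b2, a sulfate donor transporter. In an intron of Tnip1, 27584 bp away, lay a 23.998-fold peak (31 reads) nearest to Gpx3, a secreted glutathione peroxidase. The 3′ UTR of Tnfrsf1b held a 5.10-fold peak nearest to Vps13d, at 31973 bp. The summit nearest to Tnf was 33908 bp away at Atp6v1g2, and that nearest to Nfkbib was 79278 bp away at Lgals4. Among these 16 genes the distance was greatest at Tlr4, where it was 1095302 bp, and at Il1rn, where it was 574173 bp, both named after their values were seen.

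Ligand genes such as Tnf and Il1b are expressed mainly in immune cells, a minority of the cells of liver. In this bulk chromatin, a site bound in few cells cannot be told apart from a site bound weakly in many. The markers examined were 10 of Kupffer cells and macrophages, 6 endothelial, 5 stellate, 4 lymphocyte and 3 neutrophil. Of these 28, 1 had a promoter peak, a stellate gene (3.57%, against 27.9% of all genes). The share was 51.0% among all genes with a CpG ratio of at least 0.6 and 7.68% below it. The CpG ratio of the markers is not given here. Distal peaks were found at 3 of 6 endothelial markers, against 18.02% of all genes. They were found at 0 of 10 Kupffer cell, 0 of 5 stellate, 0 of 4 lymphocyte and 0 of 3 neutrophil markers. The part of cell composition in the absence of ligand peaks was not tested.

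Beyond the 43 genes, 106 other genes of the same pathways were examined (107 were listed, and 1 did not match a gene of the annotation). Promoter peaks were found at 38 (35.8%, against 27.9% of all genes) and distal peaks at 23 (21.7%, against 18.02%). No peak was found at 53 (50%, against 61.8% of all genes). Pias2, a SUMO ligase that restrains STAT proteins, led at 27.7-fold (21.6 to 35.1, 67 reads), near the folds of Nfkbiz and Rel, and Pias1, its relative, had 13.5-fold. Tbk1, an IKK-related kinase of innate signalling, stood at 14.9-fold (11.3 to 19.1, 58 reads). Lifr, which pairs with gp130 to bind leukaemia inhibitory factor, reached 12.3-fold. Traf3, a brake on non-canonical NF-κB, had 11.4-fold, and Tollip, an inhibitor of Toll-like receptor signalling, 10.6-fold. Within 50 bp of these summits, Pias2 held a GC box and an E-box, and Tbk1 an ETS site and an E-box. Lifr held the core TGCAAT, Traf3 a GC box and a κB match, and Pias1 and Tollip no searched motif. Among the highest promoter peaks of the 38 genes, only those of Traf3 and Jak3 held a κB match. Whether the 43 genes and these 106 differ in their share was not tested.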

How the data were processed

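A single CHOP immunoprecipitate was analysed, made from 3 mice together; the input enters only through the background of each peak. Per the labels' protocols, single-end reads were aligned to mm10 by Bowtie with up to 2 mismatches (version not given in the sources used here), and reads in excess of 2 at the same place and strand were removed, which limits how far reads can stack. SAMtools 1.9 and Sambamba 0.7.1 filtered the alignments, and MACS2 2.1.2 called the peaks with its defaults, per the same protocols.

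The peak list deposited by the authors gives fold enrichment at each summit over local background, its −log10 p and its −log10 q. A score that the authors deposited was not used. Reads at the summit and background were solved from fold and −log10 p, with a residual under 0.001 in all 14157 peaks. The solver and the peak assignment were tested on simulated data. Peaks were read with GENCODE M21 start sites of protein-coding transcripts and with the GRCm38.p6 sequence, the assembly behind mm10. Its lower-case letters gave the repeat mask. The CpG ratio was taken within 500 bp of the outermost start site. Motifs were searched on both strands; TGACGTAA was added after the data were seen.

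By rule, all 24 genes with a promoter peak were described, the highest distal peak of each gene was reported, the nearest summit was given for the first 6 listed genes without a peak, and windows were printed for the highest peaks and for κB or STAT matches, except that the windows of 1 gene are not reported here. The members and lists were chosen with earlier results of these data known. No set test was run, and with 1 library no test between conditions was possible. Alternatives varied the peak threshold, start sites, distances, assignment, repeat mask and motif window. Scripts ran in Python 3.11.15 (pandas 2.3.3, numpy 2.4.6, pysam 0.24.0, scipy 1.17.1, matplotlib 3.10.9).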

Additional observations from a re-analysis of the deposited data

How the results depend on the processing

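No paired analysis was possible because there was 1 immunoprecipitated library and its input, and no replicate. For the same reason no library could be left out. Requiring at least the median fold of the list left 15 of the 43 genes with a promoter peak (14.7% of all genes) and 9 with a distal peak (10.8%). The other alternatives kept the promoter count between 17 and 24 (19.9% to 29.4% of all genes) and the distal count between 11 and 15 (11.6% to 20.4%), and all kept the count with either kind between 19 and 29 (22.5% to 38.8%). The lowest of these promoter counts, 17, required the peak interval to reach a start site. A −log10 q of at least 5 left no promoter peak at Il6st, Myd88, Nfkb2, Ripk1 or Stat3. The nearest start site alone removed Myd88, and 500 bp in place of 1 kb removed Nfkb1 and Tnfrsf1a. The median promoter fold per gene was 7.52, with alternatives from 7.10 to 8.48. The other pathway genes with a promoter peak numbered 28 to 39 (20.98% to 29.4% of all genes). Reads at the summit limit precision: most folds under 10 have overlapping intervals.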
